A study of Homo sapiens with 6 samples.

Results

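Potassium channel genes were followed in neural stem cells given X5050, a compound that the series title calls an inhibitor of the transcriptional repressor REST. The members are the gene symbols that begin with KCN followed by a capital letter and that the array annotation gives as the only symbol of a probe set. They were chosen by name and not by their values. There were 87 such genes among the 18417 gene symbols measured. A gene with several probe sets, KCNG1 and KCNMB3 here, was represented by the one with the highest mean over all 6 arrays. The names were those of the array annotation, and all 87 had the same symbol in the RefSeq table of GRCh38.p14. Another 3 probe sets carried a KCN symbol together with a second symbol (KCNRG with TRIM13 on 2 of them, and KCNJ18 with KCNJ12) and were not counted as members.

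The cells were neural stem cells at passage 14, made from SA-01, an established line of human embryonic stem cells. They were treated from 5 h after plating and for 24 h, either with the solvent DMSO at 0.1% or with X5050 at 100 µM. Each treatment had 3 arrays from 3 independent cultures of this line. The design text was read as giving each culture a DMSO and an X5050 sample with the same replicate number, so the cultures are called 1, 2 and 3. Values are log2 signals, and a change is the X5050 mean minus the DMSO mean on that scale. The number of arrays limits the precision, and the array medians lay between 5.68 and 5.75. The array compares RNA from whole cultures, in which fewer cells that express a gene and less RNA per cell cannot be told apart.

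Potassium channels let potassium leave or enter the cell and set its resting voltage and the shape of its electrical signals. Voltage-gated channels are built from pore subunits of the families KCNA to KCND, KCNH and KCNQ, while the KCNF, KCNG, KCNS and KCNV subunits are silent alone and modify the KCNB channels. Inward rectifiers (KCNJ) and tandem-pore leak channels (KCNK) hold the resting voltage, calcium- or sodium-activated channels (KCNM, KCNN and KCNT) answer to ion entry, and auxiliary subunits (KCNAB, KCNE, KCNIP and KCNMB) change gating and traffic. REST binds RE1 elements and holds down many ion channel genes of neurons in other cells and in precursors, which is the question the comparison puts to this family.

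To show what lies in front of the members with the largest changes, the 250 bases before their RefSeq start sites are given for the gene with the largest change above 0 and for 2 genes with the largest changes below 0 (GRCh38.p14, 5′ to 3′ on the gene's strand). These are KCNT2 (chr1:196608441-196608690, minus strand), KCNA4 (chr11:30017031-30017280, minus strand) and KCNJ13 (chr2:232776566-232776815, minus strand). Capitals mark CG dinucleotides.
KCNT2: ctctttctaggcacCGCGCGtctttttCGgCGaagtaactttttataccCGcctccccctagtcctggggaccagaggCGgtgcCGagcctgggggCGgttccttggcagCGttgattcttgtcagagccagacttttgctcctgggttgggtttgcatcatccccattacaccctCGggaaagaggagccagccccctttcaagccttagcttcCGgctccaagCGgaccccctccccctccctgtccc
KCNA4: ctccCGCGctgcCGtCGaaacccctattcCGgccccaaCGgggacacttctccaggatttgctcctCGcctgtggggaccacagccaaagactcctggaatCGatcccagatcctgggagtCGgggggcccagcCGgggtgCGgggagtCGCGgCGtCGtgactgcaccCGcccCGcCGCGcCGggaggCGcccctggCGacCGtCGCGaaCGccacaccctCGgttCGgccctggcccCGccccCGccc
KCNJ13: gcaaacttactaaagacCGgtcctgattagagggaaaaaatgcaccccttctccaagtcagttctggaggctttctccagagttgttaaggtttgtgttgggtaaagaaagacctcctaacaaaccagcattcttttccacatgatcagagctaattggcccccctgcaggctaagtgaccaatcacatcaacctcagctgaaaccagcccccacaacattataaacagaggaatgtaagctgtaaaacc
The windows hold 13, 30 and 1 CG dinucleotides, beside a median of 14 over the 107 windows of 69 member genes and of 11 over all 35116 windows of the table. KCNJ13 also has TATAAA with its first base 30 bases before the start. That motif, searched on the gene's strand in windows of 250 bases before to 50 after a start, was in 5 of the 107 member windows (4.67%) and in 7.33% of all windows.

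The left part of the RE1 element, TTCAGCACC, was searched on both strands of the same windows and found in front of 2 members, KCNK3 and KCNH6 (1.87% of member windows, 0.376% of all windows). The right part, GGACAGCGC, was in 0 of the 107 member windows and in 0.581% of all windows. The matches are shown in capitals, on the gene's strand, within the stretches chr2:26692681-26692709 (KCNK3, plus strand) and chr17:63523115-63523143 (KCNH6, plus strand).
KCNK3: ggcggtgggtGGTGCTGAAgggacagctc
KCNH6: cgcggcttctTTCAGCACCaaggcgtgga
KCNK3, an acid-sensitive leak channel, had a change of 0.063, and KCNH6, a voltage-gated channel of the family of KCNH2, had -0.036. Their signals with DMSO were 4.60 and 4.65. A match in these windows is a description and not a binding site, and RE1 elements can lie far outside them.

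Most potassium channel genes gave low signals. The table carries no detection call, so the probe sets of 4 gene families not known to be expressed in neural precursors (olfactory and bitter taste receptors, keratin-associated proteins and beta-defensins, 503 probe sets) served as a stand-in for background. Their 95th percentile with DMSO was 6.13, and 67 of the 87 members lay at or under it, which leaves 20 above it (23.0%, against 52.7% of all 19460 probe sets tested). The genes nearest this level were KCNK4 (6.03) and KCNK7 (6.07) under it and KCNA1 and KCNQ3 (6.16 each) over it. The count depends on where the level is set. It was 30 with olfactory receptors alone, whose 95th percentile was 5.01, and 5 with the lower quartile of all probe sets (4.10). The keratin-associated probe sets were the brightest of the 4 families. Their 95th percentile was 7.73, against 5.12 for bitter taste receptors and 4.465 for beta-defensins. Below, the background level is 6.13 unless another is named. Probe sets differ in how well they bind, so signals of different genes give no order of transcript levels.

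The class with the highest median signal with DMSO was that of the calcium- or sodium-activated channels (median 6.55 over 6 genes, 3 of them above 6.13). KCNN3, the small-conductance calcium-activated channel, had the highest DMSO mean of all members (7.88 ± 0.11, SD, n = 3) and stood at the 76.2th percentile of all probe sets tested. The sodium-activated channel KCNT2 was at 7.63 ± 0.36, and KCNMA1, the pore of the large-conductance calcium-activated channel, at 7.23 ± 0.10 (SD, n = 3 each). In this class KCNN1, KCNN4 and KCNT1 were under the level.

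The voltage-gated pore genes had a median signal of 5.36 over 25 genes with 5 above 6.13, and KCNH8, a channel of the ELK family, was the brightest (7.65 ± 0.54, SD, n = 3). The silent subunits had a median of 5.34 (2 of 10 above the level, KCNG2 brightest at 6.46 ± 0.062) and the tandem-pore channels 5.29 (3 of 15). Among the latter KCNK2, a leak channel that opens on membrane stretch, had 7.22 ± 0.40. The inward rectifiers had a median of 5.15 (3 of 13 above it), led by KCNJ8, the pore of ATP-sensitive channels of blood vessels, at 7.32 ± 0.13 (SD, n = 3). The auxiliary subunits had a median of 5.13 (3 of 16), with KCNMB4, the neuronal partner of KCNMA1, at 6.88 ± 0.016 and KCNIP1, a calcium-binding partner of KCND channels, at 6.81 ± 0.29. The remaining 2 symbols are non-coding transcripts, KCNQ1DN at 6.44 ± 0.13 and KCNJ5-AS1 at 3.77 ± 0.078 (SD, n = 3 each).

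**Figure D1:**
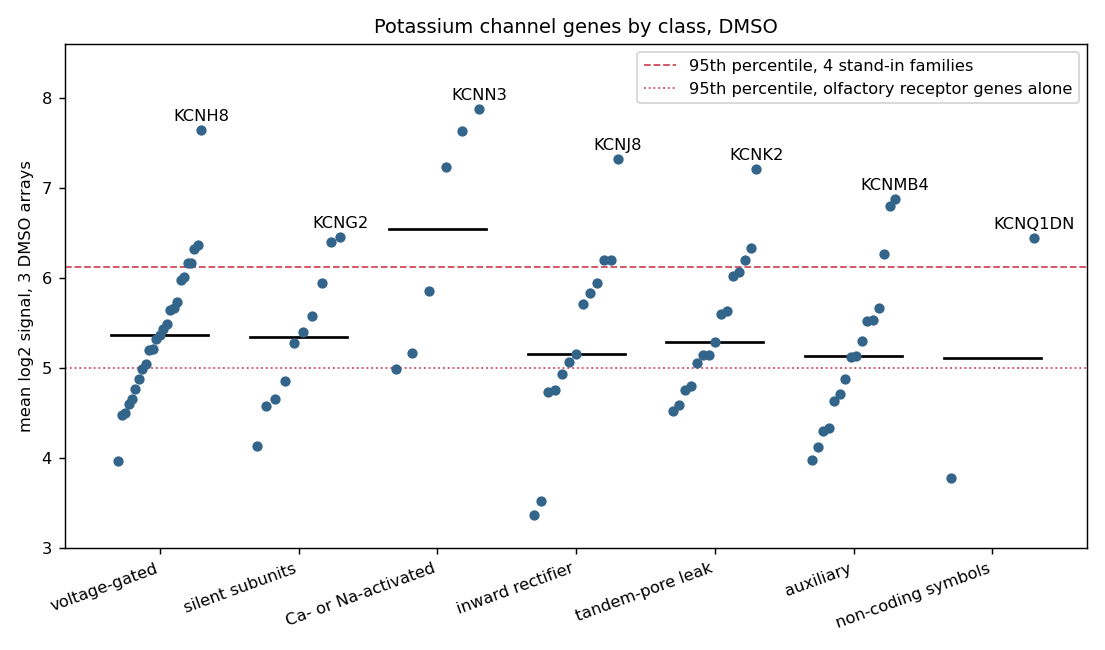
Mean log2 signal over the 3 DMSO arrays (vertical axis) of each of the 87 potassium channel genes, by channel class; bars are class medians and the dashed and dotted lines are 2 background levels (6.13 and 5.01). Of the 87 points 67 lie at or under the dashed line, and among the calcium- or sodium-activated channels 3 of 6 lie above it.

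No potassium channel gene passed the test for a change with X5050. With limma and Benjamini-Hochberg adjustment over 19460 probe sets, 0 of the 87 were higher and 0 lower at an adjusted p under 0.05 in the fit without pairing (0.0% of all probe sets were called) and also in the fit paired by culture, with the replicate number as a block (0.498% of all were called). Before adjustment, the fit without pairing gave p under 0.05 to 4 members on the higher side (4.6%, against 4.5% of all probe sets) and to 3 on the lower side (3.45%, against 4.88%). The paired fit had 7 higher (8.05%, against 7.06%) and 6 lower (6.9%, against 7.48%). These shares were near those of all probe sets. The 7 include KCNMB3, by its probe set with the highest mean over all 6 arrays (change 0.23). By the DMSO mean another of its probe sets ranks first (4.885, against 4.877). That probe set had a change of -0.019 and an unadjusted p of 0.826 in the paired limma fit. The 95% interval of the change lay within 1 log2 unit of 0 for 85 of the 87 genes without pairing, all but KCNT2 (0.14 to 1.01) and KCNJ6 (-1.06 to 0.79), and for all 87 in the paired fit.

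KCNT2, whose channel carries a potassium current that sodium entry switches on, had the largest change and the smallest p of the family. Its signals were 7.35, 8.03 and 7.51 with DMSO and 8.00, 8.42 and 8.20 with X5050 in cultures 1, 2 and 3. The groups overlapped only by the DMSO sample of culture 2, which was just above the X5050 sample of culture 1, and X5050 was higher within each culture (by 0.66, 0.38 and 0.69). The change was 0.58 (1.49-fold, SE 0.19, adjusted p = 0.433 in limma), and in the paired limma fit the SE was 0.098 and the adjusted p 0.0558, which misses the threshold. It passed in the paired limma fit without culture 2 (change 0.67, adjusted p = 0.0464). In the leave-one-array fits without pairing it ranged from 0.44 to 0.78. Its relative KCNT1 had a change of 0.086 at a signal under the background level.

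KCNN3 was lower with X5050 in all 3 cultures. Its signals were 7.89, 7.76 and 7.98 with DMSO and 7.67, 7.51 and 7.68 with X5050, and the groups did not overlap. The change was -0.26 (1.19-fold, SE 0.096, adjusted p = 0.484 in limma and 0.217 in the paired fit), with -0.22, -0.25 and -0.30 in cultures 1, 2 and 3. KCNN1 (0.050) and the intermediate-conductance KCNN4 (0.0057), other calcium-activated channels, had changes close to 0.

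KCNK2 had 6.79, 7.27 and 7.59 with DMSO and 6.53, 6.76 and 7.27 with X5050. The groups overlapped because the cultures differed, while X5050 was lower in each culture (by -0.26, -0.51 and -0.32). The change was -0.36 (1.29-fold, SE 0.24 without pairing and 0.094 with it, adjusted p = 0.736 and 0.132 in limma). With 1 array left out and no pairing it ranged from -0.58 to -0.18, the latter without DMSO replicate 3. Of the other 14 tandem-pore channel genes KCNK13 had the smallest p, with 5.20, 5.21 and 5.45 with DMSO against 5.37, 5.59 and 5.55 with X5050 (change 0.22, SE 0.11, adjusted p = 0.590 in limma). The KCNK13 mean with DMSO lay under the background level.

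Among voltage-gated pores KCNA4, which carries a fast-inactivating current, had 6.02, 5.51 and 5.68 with DMSO and 5.39, 5.10 and 5.50 with X5050. Its groups did not overlap, with the highest X5050 value just under the lowest DMSO value. The change was -0.40 (1.32-fold, SE 0.16, adjusted p = 0.499 in limma and 0.140 in the paired fit), and -0.26 without DMSO replicate 1. KCNA5, another channel of the same family, was higher with X5050, from 4.97, 4.99 and 5.17 to 5.19, 5.29 and 5.33 without overlap (change 0.23, SE 0.093, adjusted p = 0.509 in limma). KCNH8 had 7.03, 8.03 and 7.89 with DMSO and 6.99, 7.64 and 7.54 with X5050, lower in each culture though by only 0.036 in culture 1 (change -0.26, SE 0.28, paired SE 0.10, adjusted p = 0.858 and 0.293 in limma). Without pairing it came to -0.055 without X5050 replicate 1 and to -0.57 without DMSO replicate 1. KCND2, a pore of the transient current of neurons, had 4.83, 5.46 and 5.33 with DMSO and 4.86, 5.18 and 4.56 with X5050 (change -0.34, SE 0.20, adjusted p = 0.687 in limma), and its difference came to 0.023, -0.28 and -0.77 in the 3 cultures. Its change was -0.19 without X5050 replicate 3 and -0.53 without DMSO replicate 1. KCNA4, KCNA5 and KCND2 lay under the background level.

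Of the silent subunits KCNG1 had 6.17, 6.01 and 5.65 with DMSO and 6.64, 6.45 and 5.91 with X5050. It was higher in each culture by 0.48, 0.44 and 0.26, although the groups overlapped. The change was 0.39 (1.31-fold, SE 0.21 without pairing and 0.092 with it, adjusted p = 0.640 and 0.110 in limma), and without pairing it ranged from 0.24 without X5050 replicate 1 to 0.61 without X5050 replicate 3. The other KCNG1 probe set, at a signal of 5.33 with DMSO, had a change of 0.11. Both lay under the background level with DMSO. KCNG2 had 6.53, 6.41 and 6.44 with DMSO and 6.27, 6.28 and 6.25 with X5050 (change -0.19, SE 0.079, adjusted p = 0.512 in limma), with no overlap.

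**Figure D2:**
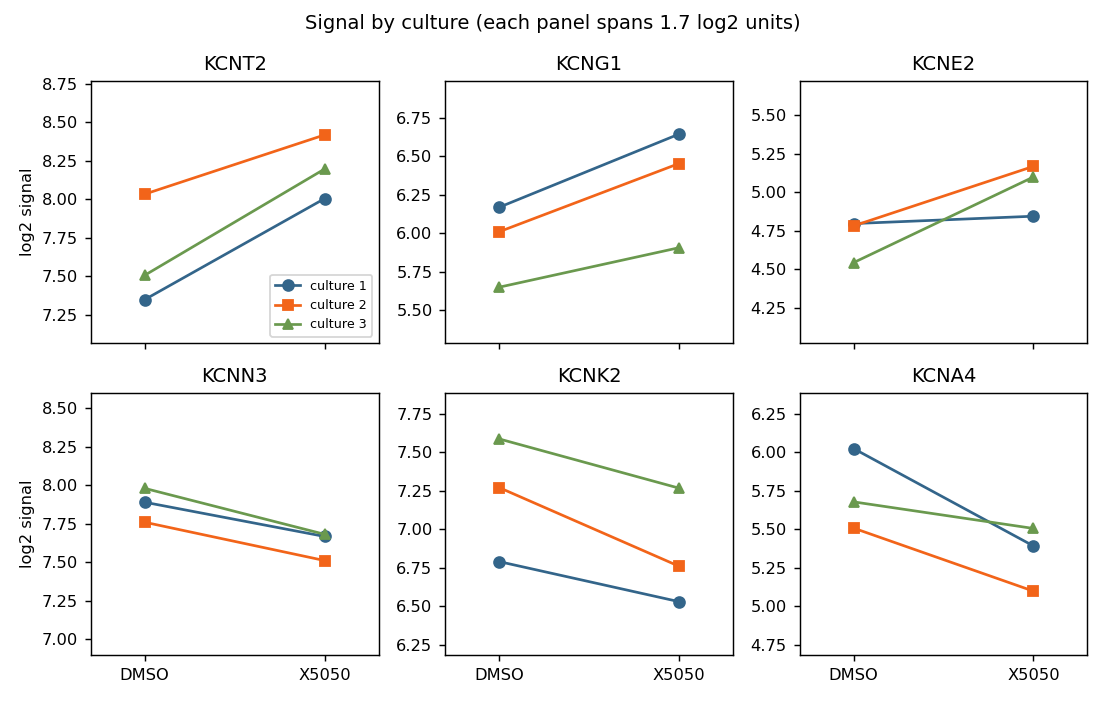
Log2 signal (vertical axis) with DMSO and X5050 for 6 potassium channel genes, with a line joining the samples of each culture. All 3 lines slope up for KCNT2, KCNG1 and KCNE2 (for KCNE2 by only 0.048 in culture 1) and down for KCNK2, KCNN3 and KCNA4. None of the 6 passed the adjusted test.

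Inward rectifiers had changes on either side of 0, with a median of -0.0082 (6 of 13 above 0, against 52.7% of all probe sets). KCNJ10, which clears potassium into astrocytes, had 5.53, 5.98 and 6.00 with DMSO and 6.07, 6.27 and 6.09 with X5050, without overlap (change 0.31, SE 0.14, adjusted p = 0.560 in limma). It stood at 0.16 without DMSO replicate 1, and its DMSO mean of 5.84 lay under the background level. KCNJ13, a weakly conducting channel of epithelia, had 4.78, 5.06 and 4.37 with DMSO and 4.06, 4.80 and 4.13 with X5050, lower in each culture (change -0.40, SE 0.24, paired SE 0.12, adjusted p = 0.677 and 0.160 in limma). The change was -0.24 without DMSO replicate 2 and -0.64 without X5050 replicate 2. All 6 signals lay under the background level. KCNJ8 had 7.44, 7.19 and 7.35 with DMSO and 7.45, 7.29 and 7.34 with X5050, a change of 0.035 with a 95% interval of -0.19 to 0.26.

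The auxiliary subunits had a median change of 0.063, with 13 of 16 above 0, against 52.7% of all probe sets. Their median was 0.0042, 0.26 and 0.037 in cultures 1, 2 and 3. Of the 16 only 3 had DMSO means above the background level. KCNE2, a single-span partner of several voltage-gated channels, had 4.80, 4.78 and 4.54 with DMSO and 4.85, 5.17 and 5.10 with X5050. Its groups did not overlap, but in culture 1 the samples differed by only 0.048 (change 0.33, SE 0.12, adjusted p = 0.477 in limma). The DMSO mean of KCNE2, 4.71, lay under the background level. KCNMB4 stood at 0.12 (95% interval -0.13 to 0.37) and KCNIP1 at -0.061 (-0.50 to 0.38). KCNMB4 came to 0.044 without X5050 replicate 2 and 0.22 without X5050 replicate 3, and KCNIP1 to -0.22 without DMSO replicate 2 and 0.10 without X5050 replicate 3. The pore KCNMA1, which KCNMB4 joins, had 7.16, 7.35 and 7.19 with DMSO and 7.36, 7.33 and 7.20 with X5050 (change 0.067, interval -0.15 to 0.28). The 4 probe sets of KCNMB3, another subunit of that channel, had changes from -0.019 to 0.23, so they did not share a direction. With DMSO all 4 lay under the background level. Of the non-coding symbols KCNJ5-AS1 stood at 0.28 (SE 0.12, adjusted p = 0.516 in limma, and 0.17 without X5050 replicate 2) and KCNQ1DN at -0.18 (SE 0.095, adjusted p = 0.629). With DMSO KCNJ5-AS1 lay under the background level and KCNQ1DN above it.

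Some potassium channel genes have been tied to REST through RE1 elements, and 3 genes listed for this reason were measured. KCNQ3, a pore of the M current that damps firing, had 6.28, 6.03 and 6.18 with DMSO and 6.26, 6.21 and 6.63 with X5050. Only the X5050 sample of culture 3 stood above all DMSO values, and the change was 0.20 (SE 0.13, 95% interval -0.11 to 0.51, adjusted p = 0.728 in limma). It was 0.071 without X5050 replicate 3. KCNQ5, which joins KCNQ3 in that current, had a change of -0.0091 (interval -0.38 to 0.37), and KCNN4 of 0.0057 (-0.24 to 0.25). Thus 0 of 3 passed, and their intervals together reach from -0.38 to 0.51. With DMSO KCNQ5 and KCNN4 lay under the background level and KCNQ3 just above it.

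**Figure D3:**
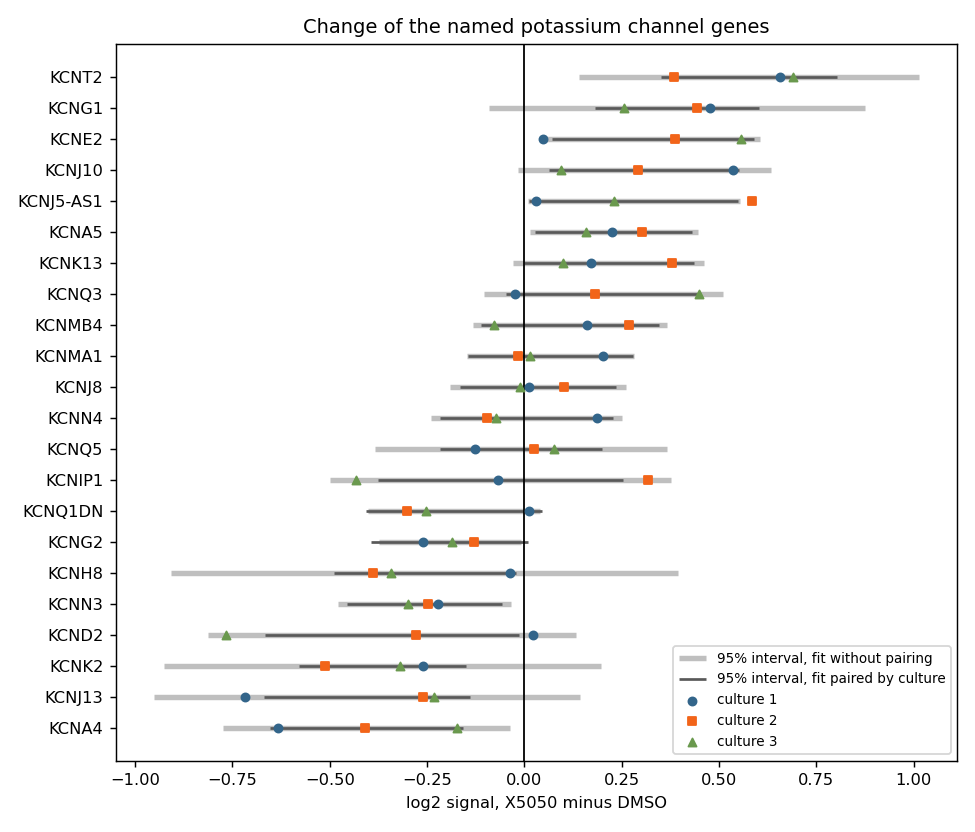
Change in log2 signal with X5050 (horizontal axis) of 22 named potassium channel genes, with 1 symbol per culture and the 95% intervals of the fits without and with pairing by culture. KCNT2 is farthest to the right (0.58) and KCNA4 farthest to the left (-0.40), and the paired interval is the shorter one where cultures differ, as for KCNK2 and KCNH8.

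Across the family the median change was 0.049, beside 0.0092 over all probe sets tested, and 56 of the 87 genes were above 0 (64.4%, against 52.7%). Samples of all 3 cultures were higher with X5050 for 23 members (26.4%, against 18.0% of all probe sets) and lower for 11 (12.6%, against 17.5%). KCNMB3 is among the 56 and the 23, though its probe set with the highest DMSO mean had a change of -0.019. The X5050 values did not overlap the DMSO values for 7 members on the higher side (8.05%, against 7.51%) and 4 on the lower side (4.6%, against 7.41%), 11 in all (12.6%, against 14.9%). Of the 67 members at or under the background level 46 were above 0, with a median of 0.051, and of all 9198 probe sets at or under it 5325 were above 0, with a median of 0.022. The 20 members above the level were split 10 and 10, with a median of -0.016. That median turned to 0.042 without DMSO replicate 1 and to 0.048 without X5050 replicate 3, so it has no settled sign. The X5050 array of culture 2 had the highest lower quartile of the 6 arrays (4.21, against 4.05 to 4.12 on the others), and the median change of the dim members was 0.12 in culture 2, against 0.0028 and 0.058 in cultures 1 and 3. Over all dim probe sets the median was 0.064 in culture 2, against -0.019 and 0.014. After another quantile normalization the family's median was 0.028. It was 0.0448 without the X5050 array of culture 2, 0.0187 without the DMSO array of culture 2 and 0.021 without both in the paired fit.

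**Figure D4:**
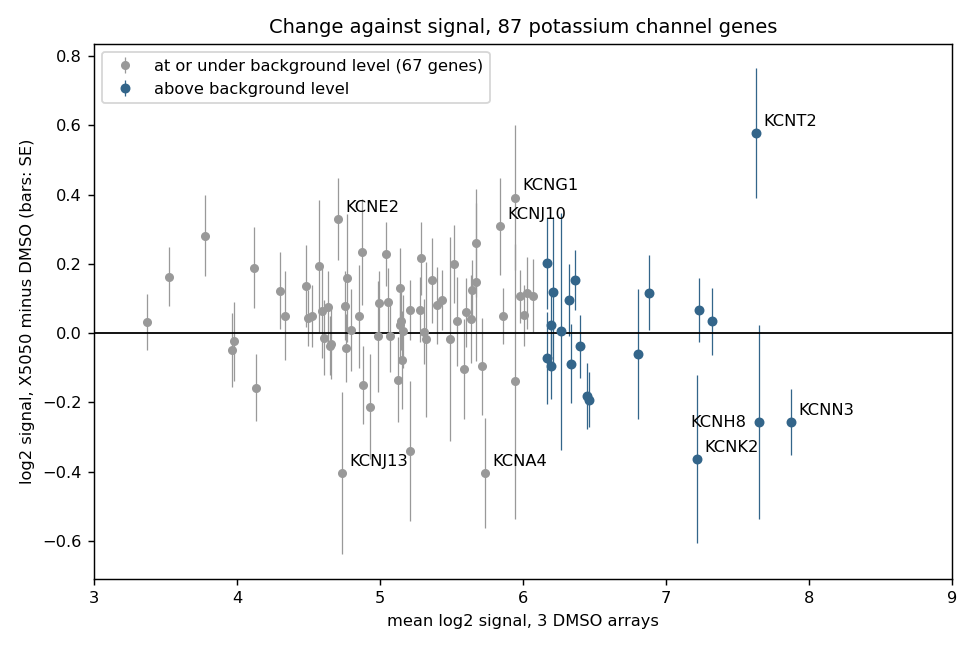
Change in log2 signal with X5050 (vertical axis, bars give the SE of the fit without pairing) against the mean DMSO signal (horizontal axis) for the 87 genes. Of the 67 grey points at or under the background level 46 lie above 0, and of the 20 blue points 10 do, with KCNT2 highest at 0.58; the median of the blue points changes sign when DMSO replicate 1 or X5050 replicate 3 is left out.

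Some potassium channel genes differed between cultures. An F test of the culture beside treatment, added after the values were seen (limma, adjusted over 19460 probe sets), called 8 of the 87 members (9.2%, against 2.93% of all probe sets), and 19 had an unadjusted p under 0.05 (21.8%, against 15.6%). The 8 were KCNIP4, KCND3, KCNH8, KCNK2, KCNJ2, KCNJ6, KCNB2 and KCNG1, with adjusted p from 0.00458 to 0.0467 in limma. Of these KCND3, KCNJ6, KCNB2 and KCNG1 had DMSO means under the background level (5.49, 5.94, 5.32 and 5.94). KCNIP4, a calcium-binding partner of KCND channels, had the smallest p. It had 6.80, 6.25 and 5.75 with DMSO in cultures 1, 2 and 3 and 6.87, 6.28 and 5.67 with X5050, so its cultures spanned 1.13 log2 units while its change with X5050 was 0.0059. KCND3, a pore that such partners join, had 6.07, 5.15 and 5.26 with DMSO and 6.00, 5.13 and 5.30 with X5050, with culture 1 apart from the others. KCNJ6, a G protein-gated rectifier, was also highest in culture 1 (6.90, 5.50 and 5.43 with DMSO, 6.25, 5.38 and 5.78 with X5050), and so was the strong rectifier KCNJ2 (6.63, 5.95 and 6.04, then 6.69, 6.08 and 6.21). KCNH8 and KCNK2 were lowest in culture 1, and the delayed rectifier KCNB2 was highest in culture 3 (5.65 and 5.78, against 5.06 to 5.20 in the other cultures). KCNG1 was highest in culture 1 and lowest in culture 3 (means over both treatments 6.41, 6.23 and 5.78 in cultures 1, 2 and 3).

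**Figure D5:**
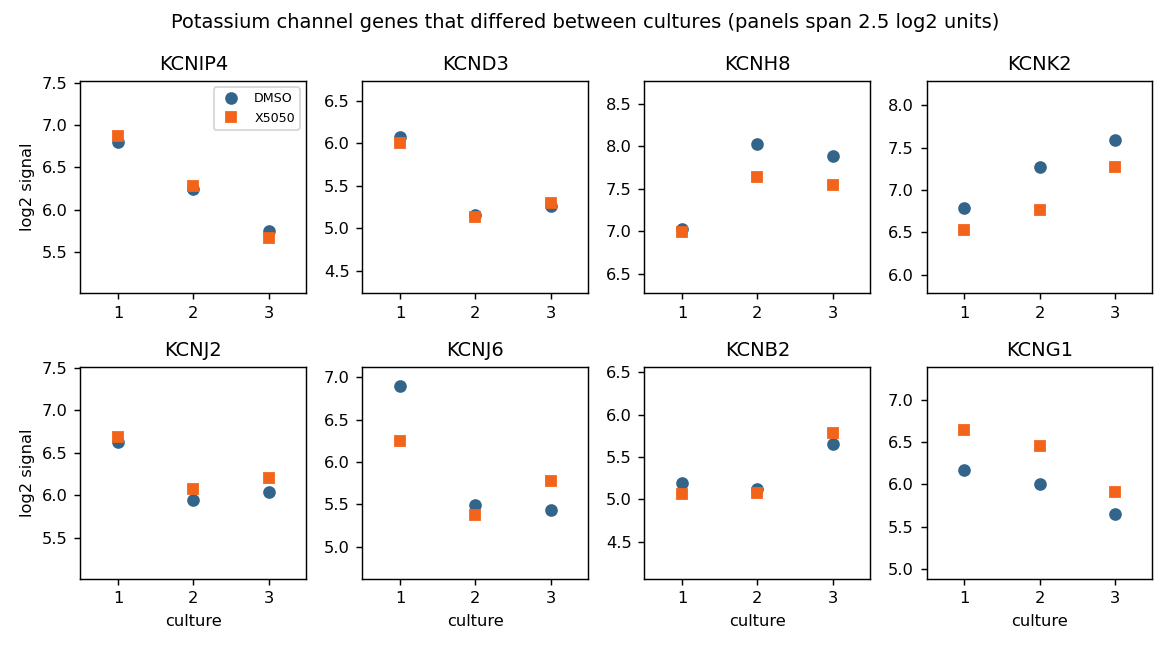
Log2 signal (vertical axis) by culture (horizontal axis) for the 8 potassium channel genes that differed between cultures, with circles for DMSO and squares for X5050. For KCNIP4 and KCND3 the pair of symbols of a culture nearly coincide while cultures lie 1.13 and 0.89 log2 units apart at most. The DMSO means of KCND3, KCNJ6, KCNB2 and KCNG1 are under the background level.

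Markers of some cell types differed between cultures as well. The same F test called 7 of 8 mesenchymal, 2 of 7 neuronal and 2 of 6 astrocyte markers (2.93% of all probe sets). It called 0 of 8 neural stem cell and 0 of 4 oligodendrocyte markers. The 8 mesenchymal markers, genes of connective tissue, were all above the background level, and their mean signal was 8.83, 7.45 and 7.19 with DMSO and 8.20, 6.81 and 7.02 with X5050 in cultures 1, 2 and 3. Their summed signal ran from 57.5 to 70.6 with DMSO and from 54.5 to 65.6 with X5050, and all 8 were lower with X5050 on average. Their part in the differences of KCNIP4, KCND3, KCNJ6, KCNJ2, KCNH8, KCNK2, KCNB2 and KCNG1 between cultures, and in the changes with X5050, was not tested. All 8 neural stem cell markers were above the level (summed 75.9 to 76.7 with DMSO, 75.1 to 75.8 with X5050), as were 6 of 7 neuronal markers, all but RBFOX3 (59.05 to 62.1 and 59.8 to 61.9). Of 6 astrocyte markers GFAP, AQP4 and ALDH1L1 were under it (43.2 to 45.9 and 43.0 to 46.8), and so were all 4 oligodendrocyte markers measured (20.45 to 21.9 and 21.1 to 21.6). Sums do not show single markers. In the paired limma fit SNAP25 (neuronal) was higher (change 0.66, adjusted p = 0.0328). LUM (mesenchymal, -1.09, adjusted p = 0.0386) and 1 astrocyte marker were lower, with 0.498% of all probe sets called. In the fit without pairing 0 of these markers passed. NES and MSI1 (neural stem cell) were lower without overlap (changes -0.42 and -0.23), as were 7.41% of all probe sets, and neither passed. SOX2, VIM and SOX1 of the same list were above 0 (0.15, 0.063 and 0.042). Changes were above 0 for 3 of 8 neural stem cell, 4 of 7 neuronal and 4 of 6 astrocyte markers, against 52.7% of all probe sets.

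Several members are neighbours in the genome, with no other protein-coding gene starting between them in GRCh38.p14. Their changes shared a sign in some of these groups and not in others. KCNA6, KCNA1 and KCNA5 stood at 0.15, -0.072 and 0.23, and KCNJ10 and KCNJ9 at 0.31 and -0.096. KCNK5, KCNK17 and KCNK16 had 0.049, 0.091 and 0.060, KCNJ16 and KCNJ2 0.16 and 0.12, and KCNJ6 and KCNJ15 -0.14 and -0.21. KCNJ1 and KCNJ5 had 0.032 and 0.080, and KCNIP1 and KCNMB1 -0.061 and -0.13. None of these genes passed the test.

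Genes whose products work with potassium channels were listed apart, and 29 of 36 were measured. In limma 0 of the 29 were higher and 0 lower at an adjusted p under 0.05 in either fit (0.0% and 0.498% of all probe sets), and before adjustment p was under 0.05 for 4 on the higher side and 0 on the lower without pairing (4.5% and 4.88% of all probe sets) and for 9 and 2 with it (7.06% and 7.48% of all). Their median change was 0.099, and 20 of the 29 were above 0, against 52.7% of all probe sets. The groups did not overlap for 6 of the 29 on the higher side and 0 on the lower (7.51% and 7.41% of all). On the higher side these shares were above those of all probe sets. The list as a set was not tested. ANK3, the ankyrin that anchors channels at the start of the axon, had 7.89, 8.43 and 8.44 with DMSO and 8.40, 9.03 and 8.79 with X5050 (change 0.49, SE 0.20, adjusted p = 0.513 in limma and 0.0709 in the paired fit). It was higher in each culture, the groups overlapped, and without DMSO replicate 1 the change was 0.30. Its relative ANK2 stood at 0.37 (SE 0.14, adjusted p = 0.486 in limma), and the sodium pump subunits ATP1B1 and ATP1B2 at 0.25 (SE 0.087, adjusted p = 0.456) and 0.44 (SE 0.19, adjusted p = 0.516). ATP1B2 differed by 0.88, 0.39 and 0.065 in cultures 1, 2 and 3, and its change was 0.22 without DMSO replicate 1. ABCC9, the regulatory subunit of the channel that KCNJ8 forms, was picked after its values were seen. It had 7.05, 6.97 and 6.44 with DMSO and 6.83, 6.13 and 6.00 with X5050 (change -0.50, SE 0.24, paired SE 0.12, adjusted p = 0.589 and 0.119 in limma). The change was -0.75 without X5050 replicate 1. It passed in the paired limma fit without culture 1 (change -0.64, adjusted p = 0.0323), beside a change of 0.035 for KCNJ8.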

How the data were processed

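RNA of 6 samples (3 DMSO, 3 X5050) was hybridised to 1 Affymetrix whole-transcript array each. Each probe set has a log2 signal in the table the authors deposited. RMA and Partek are named in the submitters' processing notes, while versions, settings and genome build were not given in the sources used here. Of 33297 probe sets 19460 have 1 gene symbol and were tested with limma 3.58.1 (lmFit and eBayes, two-sided, R 4.3.3), with Benjamini-Hochberg adjustment over all of them and a threshold of 0.05. Treatment was the only term. The alternative with the replicate number as a block is given beside it, since arrays that share a number deviated together from the mean of their group (correlations 0.365, 0.298 and 0.255, against -0.236 to -0.052 for other pairs). That pairing comes from the design text and this check. Without pairing, p-values weigh a change against the spread between these cultures within a treatment. In the paired fit they weigh it against how much the difference varies from culture to culture. The F test of the culture uses that same remaining spread. The fits were tested on simulated data. Plots used Python 3.11.15 and matplotlib 3.10.9.

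The members and lists were chosen with earlier results of these data known. Genes named are the 6 higher and 6 lower members with the smallest p in each fit, any past the threshold, the 10 with the highest DMSO mean, the highest of each class, and the REST-linked list. Of the partner genes the 4 with the smallest p, and any past the threshold, are named. The alternatives were other scalings, filters and probe set rules, a variance trend, other background levels and leaving out arrays or cultures. KCNT1, KCNN1, KCNK3, KCNH6, KCNMB3, the genes that differed between cultures, neighbouring genes and ABCC9 were named after their values were seen.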

Additional observations from a re-analysis of the deposited data

How the results depend on the processing

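Without a replicate block and with it, and after another quantile normalization, centring of the arrays on their medians, removal of dim probe sets, the median over the probe sets of each gene or a variance trend, 0 potassium channel genes and 0 partner genes passed in limma. With the replicate block 1 culture was left out in turn. Then 0 to 1 potassium channel genes were higher (1 without culture 2, KCNT2), 0 were lower, and 0 to 1 partner genes passed (1 without culture 1, ABCC9). The block left the median change at 0.0488, and over all fits with an array or culture left out that median lay between 0.0187 and 0.0702. The median of the 20 genes above background, -0.016, was 0.053 with the block and without culture 3. KCNN4, KCNQ5, KCNJ8, KCNIP1 and KCNMA1, whose changes were close to 0, turned sign under at least 1 alternative. Genes without overlap between groups numbered 11, and 14 to 26 with 1 array left out, when 16.1% to 29.9% of the members and 22.1% to 26.8% of all probe sets had none. The number at or under background was 67, and it was 5 with the lower quartile of all probe sets, 3 with the median of the stand-in families and, in an alternative chosen after seeing the data, 30 with olfactory receptors alone. With the level that gave 67, signals near background limit what can be seen of most of these genes. With the lower levels that gave 30, 5 and 3, most of them lay above background. The 8 genes that differed between cultures numbered 8 after each of 2 other scalings.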
